A study of Mus musculus with 12 samples.

Results

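The genes described here encode heat shock proteins and their J-domain co-chaperones, measured in cultured cardiac fibroblasts. They were chosen by name: every gene whose symbol in the platform annotation begins with Hsp followed by a, b, d, e, h or a digit, or with Dnaja, Dnajb or Dnajc followed by a digit, together with Hspbp1, Hsf1 and Hsf2. The annotation named 69 such genes, and 55 of them had a probe called detected (detection p-value below 0.05) on 4 or more of the 12 arrays, as had 11018 genes in all. The other 14 were not tested. Just inside the minimum lay Dnajb3, detected on 4 arrays, and Dnajb5 and Hspa12a, each detected on 5. Just outside it lay Dnajc6, detected on 3, and Dnajc1, detected on 2. Hspbap1 enters through its symbol, although it is named for an association with a heat shock protein. No probe was named for Hsf1 or Hsp90ab1, which were not analysed here.

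The arrays held RNA of primary cardiac fibroblasts of female C57/BL6 mice aged 10 to 16 weeks, grown in medium with fetal calf serum. Untreated control cells, cells given 200 nmol/L CCN2 and cells given 500 nmol/L GDF15 each had 4 arrays, numbered 1 to 4, 5 to 8 and 9 to 12. The treated labels give 48 h, and the control labels give no time of their own. Nothing in the labels ties the arrays of a group to separate wells or mice, and the p-values therefore reflect array-to-array spread that may be technical. CCN2, also named CTGF, is a matrix-associated signalling protein, and GDF15 is a stress-induced cytokine of the TGF-beta superfamily.

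Heat shock proteins bind unfolded or partly folded proteins and keep them from aggregating. HSP70 proteins work in an ATP cycle that J-domain proteins start and HSP110 proteins and other exchange factors reset, and clients can then pass to HSP90. Small heat shock proteins hold clients without ATP and are abundant in muscle. Cytosolic members are induced through the heat shock factor HSF1, and members of the endoplasmic reticulum through the unfolded protein response, by factors such as ATF6.

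Values are log2 intensities after background correction and quantile normalization, and a change was called where limma's adjusted p over all tested probes was under 0.05. After CCN2, 29 of the 55 genes rose, 9 fell and 17 did not pass. Among all 11018 genes, 25.7% rose and 30.2% fell by the same rule, 55.9% in all. At least a 2-fold change was called in 5 of the 55 and in 14.1% of all genes. The median log2 change was 0.28 over the 55 genes and -0.023 over all genes. After GDF15, 4 of the 55 rose and 1 fell, against 9.76% and 12.7% of all genes and 22.4% in either direction, and none of the 55 but 2.59% of all genes passed with at least a 2-fold change. There the medians were 0.028 and -0.018. GDF15 arrays set against CCN2 arrays gave 9 genes higher and 23 lower with GDF15, against backgrounds of 23.8% and 22.0%, or 45.9% together, and 2 of the 55 but 8.85% of all genes passed with at least a 2-fold difference. The 3 comparisons share arrays, so they are not independent of each other.

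Counts of genes whose arrays did not overlap use no fitted test. They rest on the same background-corrected, quantile-normalized values and were not redone with median scaling. All 4 CCN2 arrays lay above all 4 control arrays in 26 of the 55 genes and below them in 9, against 24.5% and 29.5% of all genes, 54.0% in all. The GDF15 arrays lay wholly above control in 3 and wholly below in 3, against 10.5% and 15.3%, 25.8% in all. They lay wholly above the CCN2 arrays in 7 and wholly below in 17, against 21.7% and 20.1%, 41.8% in all.

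The split between rises and falls after CCN2 depended on the scaling. With each array scaled to its median in place of quantile normalization, the median of all genes lay at -0.21 after CCN2, and 13 of the 55 genes rose and 16 fell, against 14.8% and 43.1% of all genes. All 13 were among the 29, all 9 falls remained, and no call changed sides. Between the treatments the balance turned: 11 genes were higher and 9 lower with GDF15, against 33.0% and 12.2% of all genes, and 14 of the 23 lower calls were lost. After CCN2 the median of the 55 genes lay above that of all genes by 0.30 with quantile normalization and by 0.26 with median scaling. The 13 genes that rose under both were Hspb8, Hspa1a, Hspa1b, Hspa4l, Hsp90aa1, Hspa5, Hsp90b1, Dnajb9, Dnajc10, Dnajc25, Hspa9, Hspd1 and Dnajb6. The 75th percentile of the unscaled intensity was 77.5 ± 1.16 on the CCN2 arrays and 90.4 ± 5.46 on the control arrays (SD, n = 4; exact two-sided permutation test, p = 0.0286, which is the lowest value possible for groups of this size). Its part in the results was not tested.

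**Figure D1:**
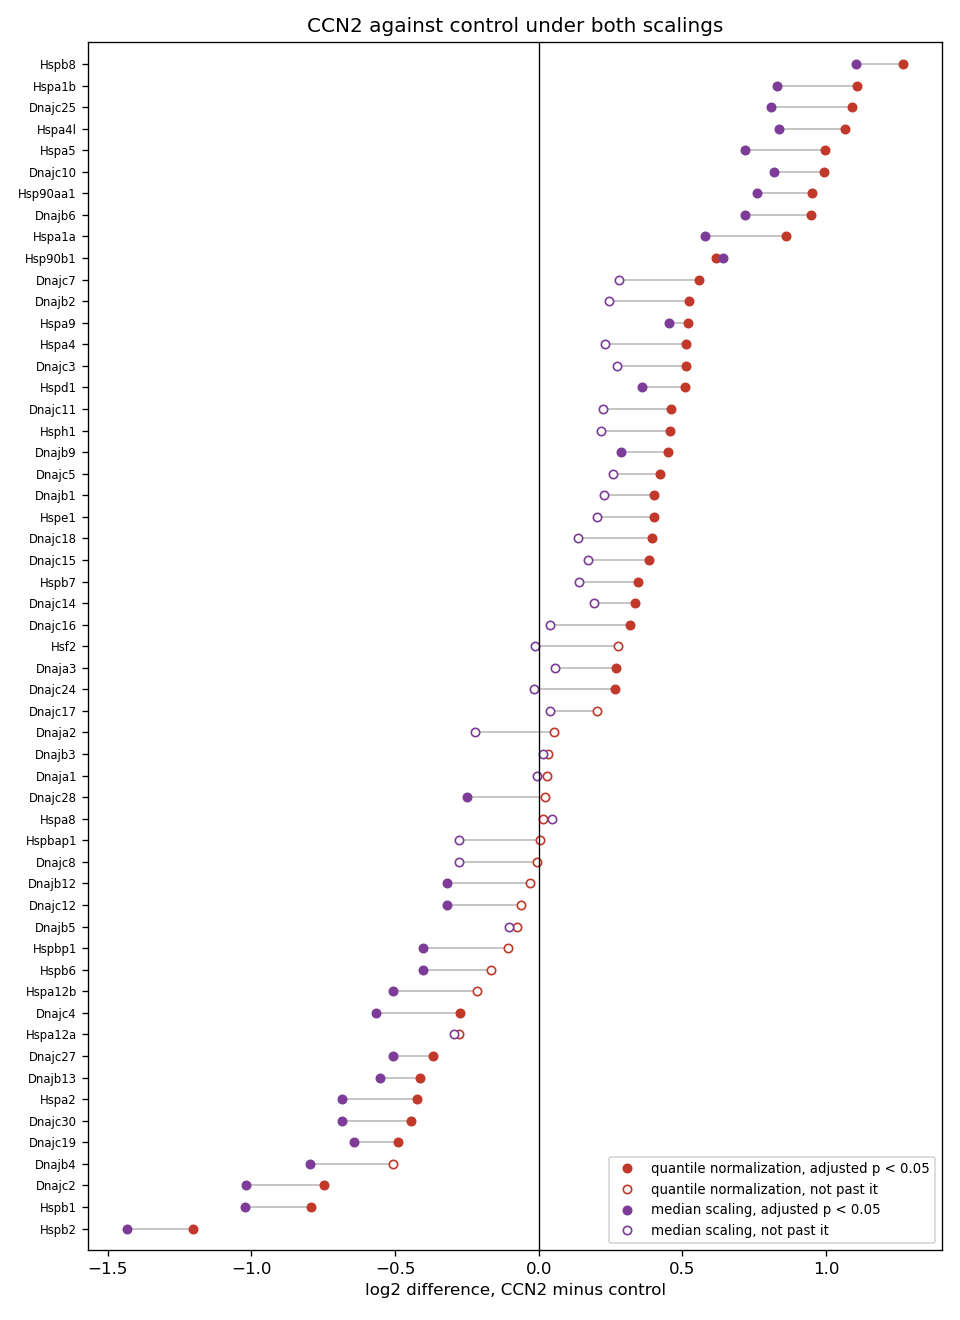
Log2 difference of CCN2 minus control for the 55 genes with quantile normalization (red) and median scaling (purple), filled where the adjusted p was under 0.05. Nearly every gene lies further left with median scaling; 13 rises and 9 falls are filled under both.

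Markers of other cell types were also detected in the cultures. All 9 fibroblast markers were measured, and 4 fell and none rose after CCN2. Among all genes 30.2% fell after CCN2 and 12.7% after GDF15. Of the macrophage markers 8 of 9 measured fell after CCN2 and 6 of 9 after GDF15, and their summed normalized intensity was 31027 to 34639 on control, 9459 to 10584 on CCN2 and 26759 to 28969 on GDF15 arrays. All 6 measured endothelial markers fell after CCN2 and 1 of the 6 after GDF15. Their sums were 2307 to 2438 on control, 1286 to 1396 on CCN2 and 1857 to 2386 on GDF15 arrays. All 6 measured smooth muscle and pericyte markers fell after CCN2. Their sums were 15827 to 18162 on control, 5829 to 6727 on CCN2 and 16315 to 18781 on GDF15 arrays. After GDF15, 4 of these 6 fell, with a median of -0.39, and Acta2, which is part of the sum, was at 0.039 and did not pass. Of the 7 cardiomyocyte markers with a named probe, 3 were measured. Their sums were 288 to 386 on control, 87.0 to 113 on CCN2 and 236 to 308 on GDF15 arrays. No macrophage or endothelial marker was undetected on every array, while 1 smooth muscle and 1 cardiomyocyte marker with a named probe was. These are bulk samples, so fewer cells of a type and less RNA per cell cannot be told apart. Which of these cell types were present, and their part in the changes below, was not tested.

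**Figure D2:**
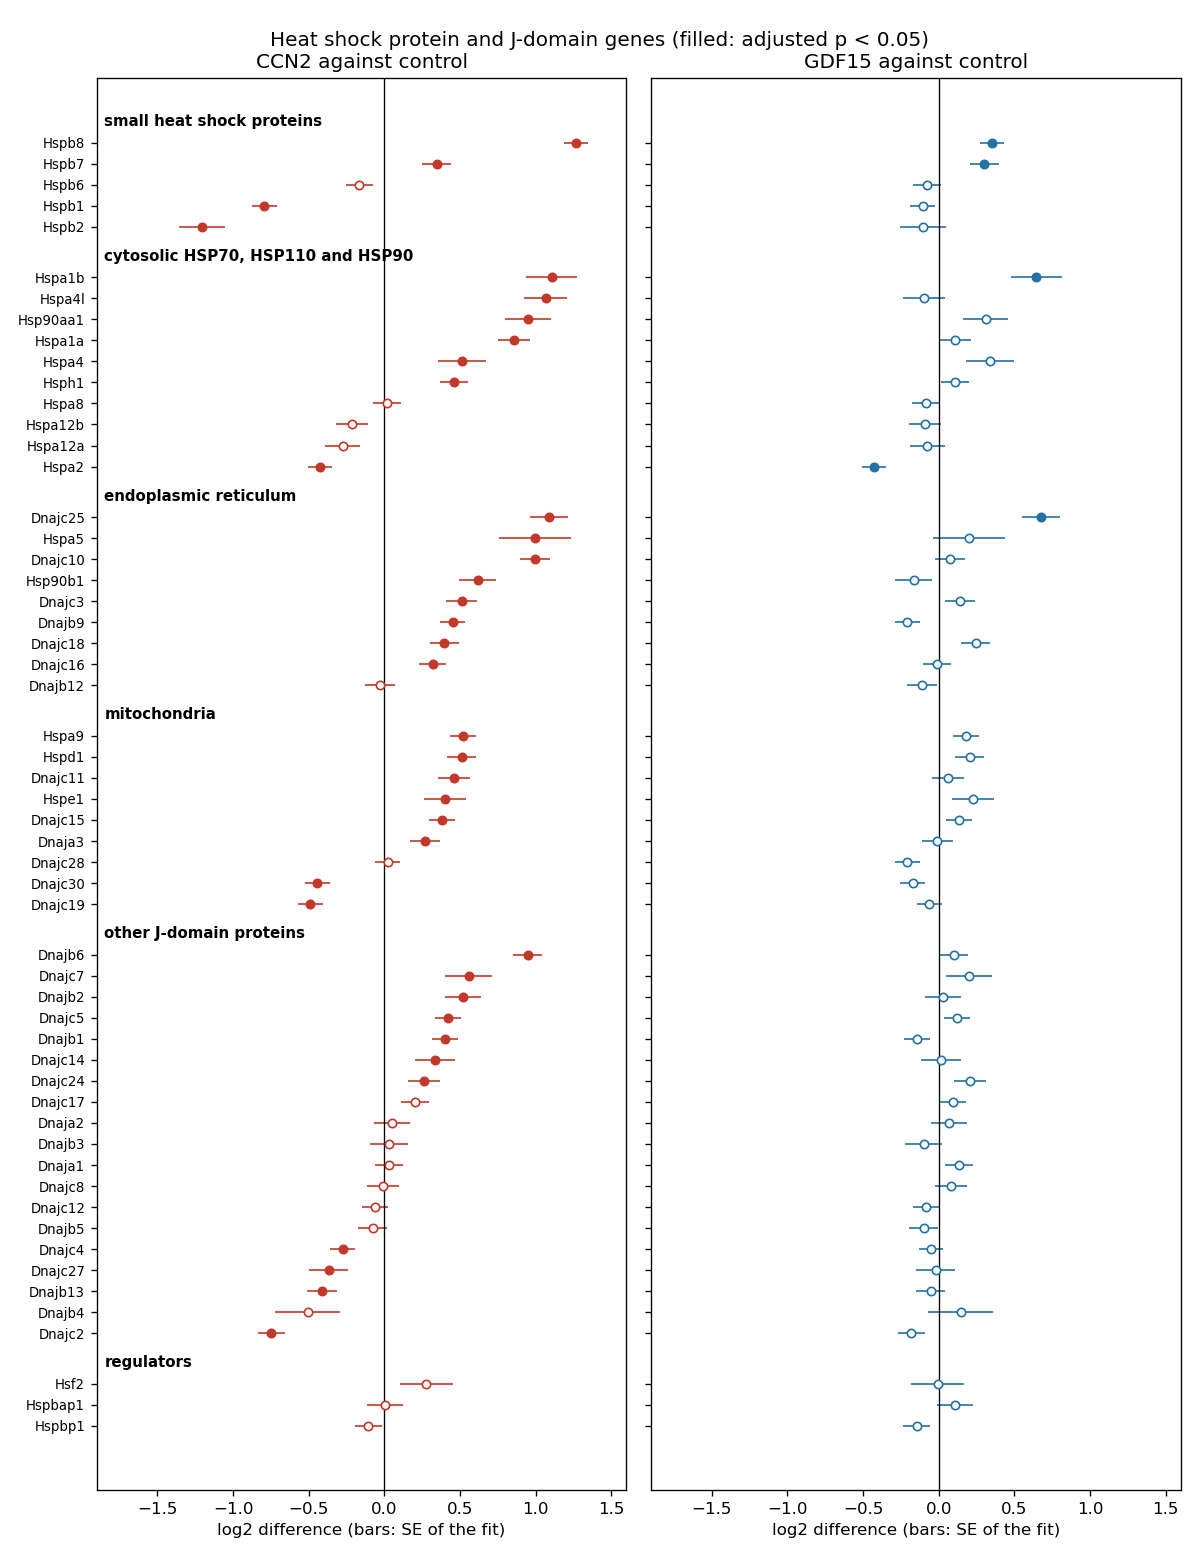
Log2 difference from control for each of the 55 genes after CCN2 (left, red) and after GDF15 (right, blue), grouped by family or compartment; bars are the SE of the fit (n = 4 arrays a group) and filled points have an adjusted p under 0.05. After CCN2, 8 of 9 endoplasmic reticulum genes are filled and right of 0, and the small heat shock proteins lie on both sides. After GDF15, 5 of the 55 points are filled. By the same rule 25.7% of all genes rose after CCN2 and 22.4% passed after GDF15.

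The small heat shock proteins split after CCN2: Hspb8 and Hspb7 rose, Hspb1 and Hspb2 fell, and Hspb6 did not pass. With median scaling 1 rose and 3 fell, Hspb8 alone staying higher and Hspb6 joining the falls at -0.40. Among all genes 25.7% rose and 30.2% fell after CCN2, or 14.8% and 43.1% with median scaling. Hspb8, which acts with the co-chaperone BAG3 to send damaged muscle proteins to autophagy, read 9.81, 9.67, 9.74 and 9.67 on control arrays 1 to 4, 10.98, 11.04, 10.97 and 10.98 on CCN2 arrays 5 to 8, and 10.03, 10.17, 10.16 and 9.94 on GDF15 arrays 9 to 12. The 3 groups did not overlap, with GDF15 in between. The rise after CCN2 was 1.27 (SE 0.080, 2.41-fold, adjusted p = 5.70e-10), and after GDF15 it was 0.35 (SE 0.080, adjusted p = 0.00465). GDF15 lay below CCN2 by -0.92 (SE 0.080, adjusted p = 6.42e-08). A second Hspb8 probe gave 1.39 after CCN2 and 0.40 after GDF15. Bag3 itself, named after its value was seen, fell by 0.38 after CCN2 (SE 0.085, adjusted p = 0.00117).

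Hspb2, a muscle small heat shock protein, read 6.69, 6.63, 6.60 and 6.31 on the control arrays, 5.50, 4.79, 5.49 and 5.64 on the CCN2 arrays and 6.62, 6.34, 6.31 and 6.55 on the GDF15 arrays. Every CCN2 array lay below every other array, and the control and GDF15 arrays overlapped. The change after CCN2 was -1.20 (SE 0.15, 2.30-fold lower, adjusted p = 3.47e-06), against -0.10 (SE 0.15, adjusted p = 0.700) after GDF15. The neighbouring gene on the chromosome is Cryab, the alpha-B crystallin gene of the same family, whose annotated span overlaps Hspb2, so transcripts of these genes may not be fully separated by the probes. Cryab is no gene of the symbol rule and changed by -1.59 after CCN2 (SE 0.094, adjusted p = 2.37e-10) and by -0.10 after GDF15 (adjusted p = 0.530).

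Hspb1, the small heat shock protein that also guards actin filaments, read 9.46, 9.40, 9.46 and 9.54 on the control arrays, 8.54, 8.63, 8.70 and 8.83 on the CCN2 arrays and 9.37, 9.40, 9.32 and 9.34 on the GDF15 arrays. The CCN2 arrays stood apart below, and the GDF15 arrays lay just under control. Its change was -0.79 after CCN2 (SE 0.081, adjusted p = 2.71e-07) and -0.11 after GDF15 (SE 0.081, adjusted p = 0.410). Hspb7, a small heat shock protein of heart and muscle, read 4.94, 5.09, 5.13 and 5.08 on control, 5.50, 5.28, 5.46 and 5.39 on CCN2 and 5.38, 5.13, 5.36 and 5.59 on GDF15 arrays. It was higher by 0.35 after CCN2 (SE 0.097, adjusted p = 0.00675) and by 0.30 after GDF15 (SE 0.097, adjusted p = 0.0382), where GDF15 array 10 lay among the control arrays. With median scaling neither rise passed (adjusted p = 0.351 and 0.179), and the rise after GDF15 was also lost without control array 1, 2 or 4 or GDF15 array 9, 11 or 12.

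**Figure D3:**
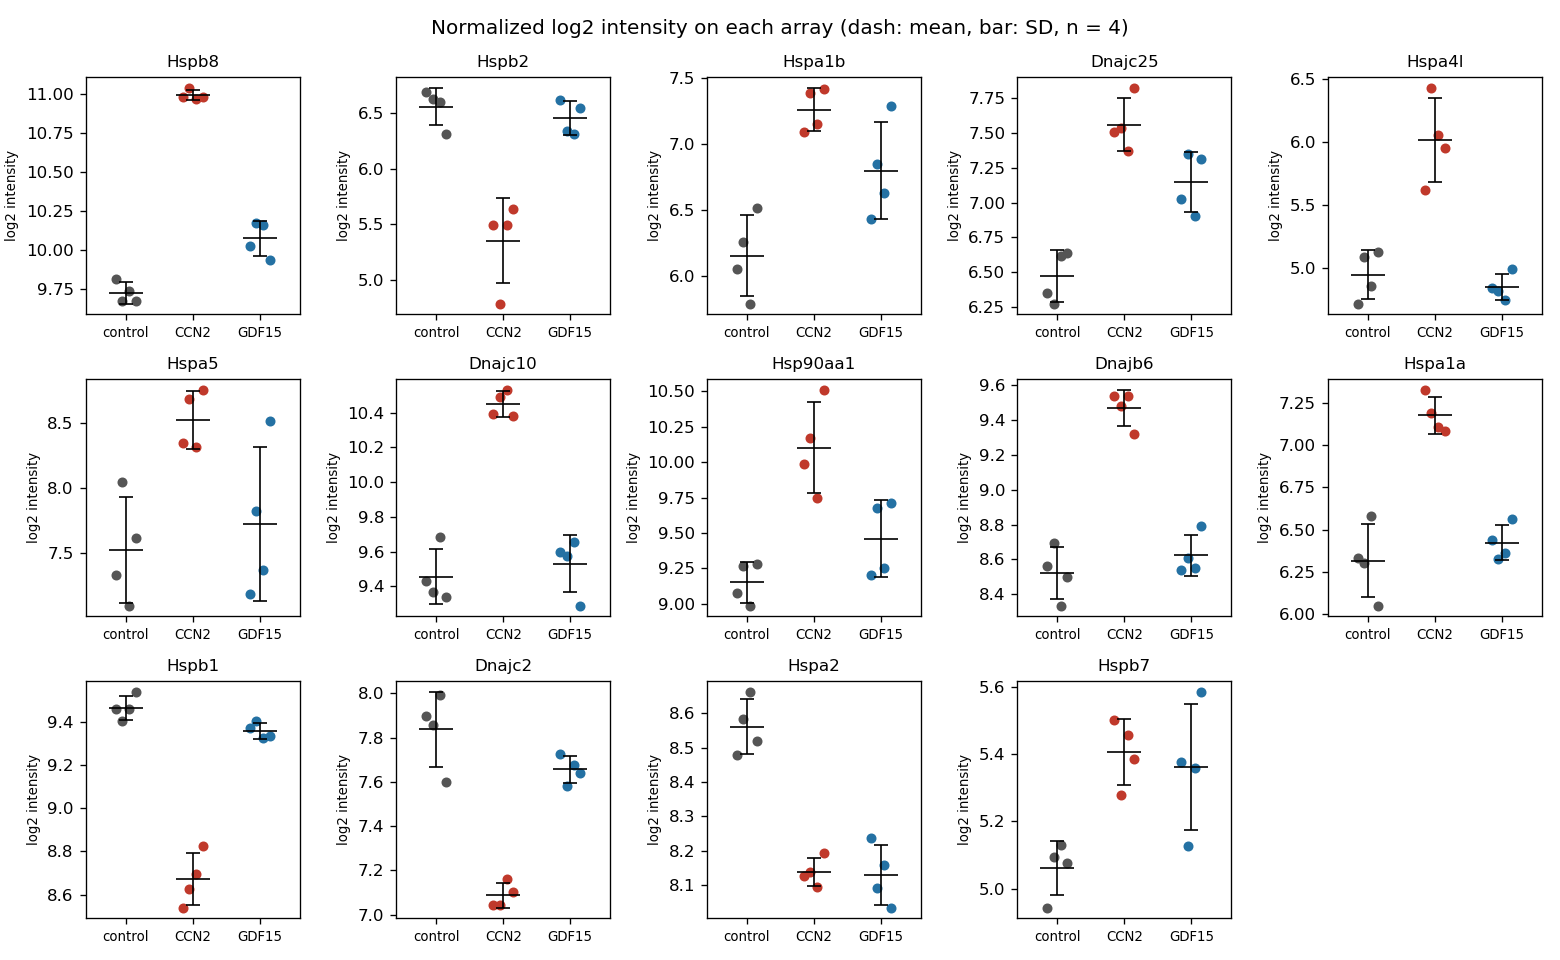
Normalized log2 intensity of 14 genes on each array, in control (grey), CCN2 (red) and GDF15 (blue) cells; dashes are means and bars SD of 4 arrays, and each panel has its own axis. The axes do not start at 0. Hspb2, Hspb1, Dnajc2 and Hspa2 are lower on the CCN2 arrays and the other genes higher.

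Among the 10 cytosolic HSP70, HSP110 and HSP90 genes, 6 rose after CCN2, 1 fell and 3 did not pass. With median scaling 4 rose, and Hspa12b fell beside Hspa2. Of all genes 25.7% rose and 30.2% fell after CCN2, or 14.8% and 43.1% with median scaling. Hspa1a and Hspa1b encode nearly the same heat-inducible HSP70, so their probes may each read both transcripts and are reported as uncertain between the genes. The Hspa1a probe read 6.33, 6.30, 6.58 and 6.05 on control, 7.33, 7.19, 7.11 and 7.08 on CCN2 and 6.44, 6.33, 6.36 and 6.56 on GDF15 arrays. It was 1.81-fold higher after CCN2 (log2 0.86, SE 0.11, adjusted p = 2.68e-06), with no overlap, and at 0.11 after GDF15 (adjusted p = 0.552). A dimmer Hspa1a probe gave a smaller rise of 0.45 after CCN2 (SE 0.10, adjusted p = 0.00144) and was at 0.14 after GDF15 (adjusted p = 0.408). The Hspa1b probe read 6.05, 6.26, 5.79 and 6.52 on control, 7.09, 7.39, 7.15 and 7.42 on CCN2 and 6.43, 6.85, 6.63 and 7.29 on GDF15 arrays. Its rise was 1.11 after CCN2 (SE 0.17, adjusted p = 3.02e-05) and 0.65 after GDF15 (SE 0.17, adjusted p = 0.0116), where the lowest GDF15 array lay under the highest control array. The second Hspa1b probe gave 0.59 after CCN2 and 0.16 after GDF15, the latter with adjusted p = 0.410, so the rise after GDF15 held on 1 of 2 probes.

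The exchange factor gene Hspa4l, of the HSP110 family, read 4.72, 5.09, 4.86 and 5.13 on control, 5.62, 6.43, 6.06 and 5.95 on CCN2 and 4.84, 4.82, 4.75 and 4.99 on GDF15 arrays. The CCN2 arrays lay above all others, by 1.07 against control (SE 0.14, 2.09-fold, adjusted p = 5.24e-06), and GDF15 lay below CCN2 by -1.16 (SE 0.14, adjusted p = 2.88e-06). Its relatives Hsph1 and Hspa4 rose by 0.46 (SE 0.093, adjusted p = 0.000497) and 0.51 (SE 0.16, adjusted p = 0.0123). Neither passed with median scaling (adjusted p = 0.147 and 0.296), and Hspa4 also did not pass without control array 1.

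Hsp90aa1, the inducible cytosolic HSP90, read 9.08, 9.26, 8.99 and 9.28 on control, 9.99, 10.17, 9.74 and 10.51 on CCN2 and 9.20, 9.68, 9.25 and 9.71 on GDF15 arrays. It rose by 0.95 after CCN2 (SE 0.15, adjusted p = 4.78e-05), and after GDF15 it was at 0.31 (SE 0.15, adjusted p = 0.177), which passed with odd or even array number as a covariate (adjusted p = 0.0266). A second probe gave 0.98 after CCN2. Hspa8, the constitutive HSP70, was at 12.55 ± 0.12 on control, 12.57 ± 0.14 on CCN2 and 12.47 ± 0.084 on GDF15 arrays (SD, n = 4). Its difference of 0.016 after CCN2 had a 95% interval of -0.18 to 0.21, and its 2 other probes did not pass after CCN2 either. On 1 of these probes GDF15 was at -0.41 against control (SE 0.14, adjusted p = 0.0515) and at -0.42 against CCN2 (SE 0.14, adjusted p = 0.0233). The remaining probes passed neither test.

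Hspa2, an HSP70 best known from spermatogenesis, fell after both treatments. It read 8.48, 8.58, 8.66 and 8.52 on control, 8.13, 8.14, 8.09 and 8.19 on CCN2 and 8.24, 8.09, 8.16 and 8.03 on GDF15 arrays. All treated arrays lay below all control arrays, and the treated groups overlapped. The changes were -0.42 (SE 0.079, adjusted p = 0.000236) and -0.43 (SE 0.079, adjusted p = 0.000743), and GDF15 minus CCN2 had a 95% interval of -0.17 to 0.16. A dimmer Hspa2 probe was at -0.21 and -0.18 and passed neither test. The atypical HSP70 genes Hspa12a and Hspa12b were at -0.28 and -0.21 after CCN2 and did not pass (adjusted p = 0.0590 and 0.107). Hspa12b was at -0.51 with median scaling (adjusted p = 0.00109) and also passed without CCN2 array 5. Hspa12a passed with array weights, with odd or even array number as a covariate and without control array 2, with adjusted p from 0.0132 to 0.233 over all settings. Hspa12a was detected on 3 control arrays, no CCN2 array and 2 GDF15 arrays.

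Heat shock elements, the sites that HSF1 binds, were searched in the 250 bases before the start of each gene in the RefSeq promoter table of GRCm38.p6, which held 45 of the 55 genes in 60 windows. Hsp90aa1, Hspa8, Hspa9, Hspb2, Dnajc2, Dnajc5, Dnajc11, Dnajc12, Dnajc18 and Dnajc30 had no window there and were not searched. The letters GAANNTTC or TTCNNGAA, on either strand, stood in 14 of the 60 windows, against 12.8% of all 32851 windows. These belonged to 12 genes, of which 7 rose after CCN2, 2 fell and 3 did not pass. Of the 30 genes with neither these letters nor the element described below for the endoplasmic reticulum, 14 rose, 4 fell and 12 did not pass. Of all genes 25.7% rose and 30.2% fell. With median scaling, 5 of the 12 genes rose and 4 fell, and 4 of the 30 rose and 8 fell, against 14.8% and 43.1% of all genes. The extended form, with GAA, TTC and GAA (or TTC, GAA and TTC) each 2 bases apart, contains the shorter form. It stood in 4 of the 60 windows, against 0.466% of all windows. These windows belonged to Dnajb6, whose windows overlap, and to Hspd1 and Hspe1, which share the stretch on opposite strands, so they are not independent. A match is a description of letters, not a site in use, and no match means only that these exact letters were absent from the 250 bases. The upstream stretches of a gene that rose with an element (Hspa1a), of one that rose with the extended form (Dnajb6) and of one that fell although it holds the shorter form 2 times (Hspb1) are shown 5′ to 3′ on the strand of the gene, with matches in capitals.
Hspa1a, chr17:34972157-34972406, minus strand: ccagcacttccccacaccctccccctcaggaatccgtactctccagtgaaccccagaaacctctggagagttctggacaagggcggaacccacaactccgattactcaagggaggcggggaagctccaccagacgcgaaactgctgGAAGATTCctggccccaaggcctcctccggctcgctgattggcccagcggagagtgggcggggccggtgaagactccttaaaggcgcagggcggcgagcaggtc
Dnajb6, chr5:29735648-29735897, plus strand: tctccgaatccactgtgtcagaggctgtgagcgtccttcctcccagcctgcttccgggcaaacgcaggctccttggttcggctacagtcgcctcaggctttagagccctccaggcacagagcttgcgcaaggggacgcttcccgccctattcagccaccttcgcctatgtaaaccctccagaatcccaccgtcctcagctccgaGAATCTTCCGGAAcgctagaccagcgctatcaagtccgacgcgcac
Hspb1, chr5:135887669-135887918, plus strand: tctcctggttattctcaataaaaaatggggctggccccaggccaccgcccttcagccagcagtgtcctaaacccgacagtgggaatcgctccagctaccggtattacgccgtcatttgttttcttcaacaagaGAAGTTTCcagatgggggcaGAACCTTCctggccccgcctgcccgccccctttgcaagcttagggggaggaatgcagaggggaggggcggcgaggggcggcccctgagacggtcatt
The Hspa1b stretch differed from that of Hspa1a at 3 of 250 bases, with the same element 104 bases before the start. Hspa1a and Hspa1b are therefore not independent among the genes counted.

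In the endoplasmic reticulum group 8 of 9 genes rose after CCN2, none fell, and only Dnajb12 of the 9 did not pass. Their median was 0.51. With median scaling 5 rose (Hspa5, Hsp90b1, Dnajb9, Dnajc10 and Dnajc25) and Dnajb12 fell, at -0.32. Among all genes 25.7% rose and 30.2% fell after CCN2, or 14.8% and 43.1% with median scaling. After GDF15 only Dnajc25 of the 9 passed, and GDF15 lay below CCN2 in 7 of the 9, or in 3 with median scaling. Of all genes, 22.4% passed after GDF15, and 22.0% were lower with GDF15 than with CCN2, or 12.2% with median scaling. Hspa5, which encodes the HSP70 of this compartment, BiP, read 7.34, 8.05, 7.10 and 7.62 on control, 8.34, 8.68, 8.31 and 8.75 on CCN2 and 7.18, 7.82, 7.37 and 8.52 on GDF15 arrays. The CCN2 arrays lay above control, while GDF15 array 12 reached into the CCN2 range. The change was 1.00 after CCN2 (SE 0.24, adjusted p = 0.00204) and 0.20 after GDF15 (SE 0.24, adjusted p = 0.628, 95% interval -0.30 to 0.70).

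Dnajc10, a J-domain protein with reductase activity that opens disulfide bonds of misfolded proteins, read 9.43, 9.36, 9.69 and 9.34 on control, 10.39, 10.49, 10.53 and 10.38 on CCN2 and 9.60, 9.58, 9.66 and 9.29 on GDF15 arrays. Only the CCN2 arrays stood apart, higher by 0.99 (SE 0.10, adjusted p = 2.34e-07), and its 2 other tested probes gave 0.69 and 0.46. Dnajc25, which encodes a membrane J-domain protein, read 6.35, 6.27, 6.62 and 6.64 on control, 7.51, 7.54, 7.37 and 7.83 on CCN2 and 7.03, 7.35, 6.90 and 7.31 on GDF15 arrays. Its groups did not overlap, in the order control, GDF15 and CCN2. The rises were 1.09 after CCN2 (SE 0.13, adjusted p = 1.16e-06) and 0.68 after GDF15 (SE 0.13, adjusted p = 0.000799). The difference between the treatments, -0.41 (SE 0.13, adjusted p = 0.0136), did not pass with median scaling (adjusted p = 0.211) or without CCN2 array 8 or GDF15 array 11.

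Hsp90b1, the HSP90 of this compartment, was at 12.24 ± 0.11 on control, 12.86 ± 0.099 on CCN2 and 12.08 ± 0.29 on GDF15 arrays (SD, n = 4). It rose by 0.62 after CCN2 (SE 0.12, adjusted p = 0.000370), and GDF15 lay below CCN2 by -0.78 (SE 0.12, adjusted p = 5.19e-05). Against control it was at -0.17 after GDF15 (adjusted p = 0.395), and without GDF15 array 12 at -0.30 (adjusted p = 0.0300). Dnajb9, a co-chaperone of BiP in degradation, rose by 0.45 (SE 0.082, adjusted p = 0.000188), and Dnajc3, which also restrains the kinase PERK, by 0.51 (SE 0.10, adjusted p = 0.000425). Dnajc3 did not pass with median scaling (adjusted p = 0.0526).

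The endoplasmic reticulum stress element, CCAAT and CCACG with 9 bases between them, is bound by ATF6 together with NF-Y. It stood within 250 bases before the start of Hspa5, Hsp90b1 and Dnajc3 among the 45 genes. These were 3 of the 60 windows, against 0.113% of all windows on either strand. All 3 genes rose after CCN2, and 2 of them with median scaling, where 25.7% and 14.8% of all genes rose. Their stretches are shown to place the element, in capitals, which Hsp90b1 holds 2 times, once on each strand.
Hspa5, chr2:34771840-34772089, plus strand: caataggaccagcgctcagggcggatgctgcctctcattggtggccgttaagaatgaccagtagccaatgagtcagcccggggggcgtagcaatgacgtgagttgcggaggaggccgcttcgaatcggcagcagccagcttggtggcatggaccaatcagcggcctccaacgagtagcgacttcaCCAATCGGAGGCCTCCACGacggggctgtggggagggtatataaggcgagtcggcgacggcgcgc
Hsp90b1, chr10:86705445-86705694, minus strand: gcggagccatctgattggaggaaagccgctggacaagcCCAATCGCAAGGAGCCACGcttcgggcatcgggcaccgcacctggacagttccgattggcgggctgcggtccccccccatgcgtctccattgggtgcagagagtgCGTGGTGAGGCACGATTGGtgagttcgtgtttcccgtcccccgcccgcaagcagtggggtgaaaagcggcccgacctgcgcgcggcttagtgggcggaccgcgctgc
Dnajc3, chr14:118937682-118937931, plus strand: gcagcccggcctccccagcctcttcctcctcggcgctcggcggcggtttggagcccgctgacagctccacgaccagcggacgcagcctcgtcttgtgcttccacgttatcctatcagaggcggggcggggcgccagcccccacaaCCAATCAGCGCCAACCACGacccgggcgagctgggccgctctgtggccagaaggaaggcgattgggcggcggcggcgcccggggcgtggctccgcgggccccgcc
The element began 65 bases before the start in Hspa5, 212 and 107 in Hsp90b1 and 105 in Dnajc3.

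Of the 9 mitochondrial genes, 6 rose after CCN2, 2 fell and 1 did not pass, and with median scaling 2 rose and 3 fell. Among all genes 25.7% rose and 30.2% fell, or 14.8% and 43.1% with median scaling. Hspd1 and Hspe1 encode the chaperonin HSP60 and its cofactor HSP10 and are transcribed in opposite directions. Both have pseudogenes in the RefSeq table, against which the probes were not checked. Hspd1 was at 10.16 ± 0.10 on control, 10.67 ± 0.081 on CCN2 and 10.36 ± 0.18 on GDF15 arrays, and rose by 0.51 after CCN2 (SE 0.096, adjusted p = 0.000248). Hspe1 was at 9.36 ± 0.079, 9.76 ± 0.038 and 9.58 ± 0.38, and its rise of 0.40 (SE 0.14, adjusted p = 0.0223) did not pass with median scaling or without control array 3 or 4. A dimmer Hspd1 probe was at 0.32 after CCN2 and did not pass (adjusted p = 0.143). After GDF15 the probe used was at 0.21 (adjusted p = 0.154), and the dimmer one fell by 0.56 (SE 0.18, adjusted p = 0.0310). Hspa9, the HSP70 that pulls proteins into the matrix, rose by 0.52 after CCN2 (SE 0.086, adjusted p = 7.22e-05), and by 0.93 on a second probe. A stretch upstream of Hspe1 and of 1 of the 2 listed Hspd1 starts carries 2 overlapping extended heat shock elements in capitals, shown on the strand of Hspe1; it lies inside the span annotated for the longer Hspd1 transcript.
Hspe1, chr1:55088053-55088082, plus strand: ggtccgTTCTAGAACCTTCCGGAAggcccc

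The J-domain subunit of the same import motor, Dnajc19, fell by 0.49 after CCN2 (SE 0.081, adjusted p = 7.71e-05), while its paralogue Dnajc15 rose by 0.38 (SE 0.085, adjusted p = 0.00108), which did not pass with median scaling (0.17, adjusted p = 0.179). Of the 4 tested Dnajc19 probes, 3 fell after CCN2 and the dimmest did not pass, and 2 fell after GDF15, at -0.51 and -0.60, where the probe used was at -0.06 (adjusted p = 0.660). Dnajc30, a J-domain protein of the inner membrane, fell by 0.44 (SE 0.082, adjusted p = 0.000222), and a dimmer probe of it was at 0.21 and did not pass. None of the 9 mitochondrial genes passed after GDF15 on the probe used, and with median scaling Dnajc28 fell, at -0.31 (adjusted p = 0.0400). Of all genes 22.4% passed after GDF15.

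Of the 19 other J-domain genes, 7 rose after CCN2, 4 fell and 8 did not pass, with a median of 0.032. With median scaling only Dnajb6 of the 19 rose, and 6 fell. Among all genes 25.7% rose and 30.2% fell after CCN2, or 14.8% and 43.1% with median scaling. None of the 19 passed after GDF15 on the probe used for the gene, where 22.4% of all genes passed. Dnajb6, a suppressor of protein aggregation, read 8.56, 8.70, 8.34 and 8.50 on control, 9.54, 9.48, 9.54 and 9.32 on CCN2 and 8.54, 8.61, 8.55 and 8.79 on GDF15 arrays. The CCN2 arrays lay above all others, by 0.95 against control (SE 0.095, adjusted p = 2.29e-07), and all 4 Dnajb6 probes rose, by 0.47 to 1.21. After GDF15, 1 of these probes rose, by 0.35 (SE 0.11, adjusted p = 0.0333). Dnajb1, the main J-domain partner of inducible HSP70, rose by 0.40 (SE 0.085, adjusted p = 0.000731), which did not pass with median scaling (adjusted p = 0.0568). GDF15 lay below CCN2 in Dnajb1 by -0.55 (adjusted p = 5.36e-05). Dnajb4, an HSP70 partner, was at -0.51 after CCN2 (SE 0.22, adjusted p = 0.0601), and it passed as a fall in 7 other settings, among them median scaling (-0.79, adjusted p = 0.00474). Dnaja1, detected on 7 of the 12 arrays, was at 0.030 after CCN2 (adjusted p = 0.817).

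Dnajc2, a ribosome-associated J-domain protein, gave opposite results on its 2 probes. The probe used read 7.90, 7.86, 7.99 and 7.60 on control, 7.04, 7.04, 7.16 and 7.10 on CCN2 and 7.73, 7.58, 7.67 and 7.64 on GDF15 arrays. It fell by 0.75 after CCN2 (SE 0.090, adjusted p = 1.97e-06), whereas the dimmer probe rose by 0.38 (SE 0.11, adjusted p = 0.0108). No direction can therefore be given for the gene. Dnajc4, Dnajc27 and the sperm flagellum gene Dnajb13 fell by 0.27 to 0.41, and Dnajb13 was detected on 3 of 4 CCN2 arrays. Dnajc5, Dnajc7, Dnajb2, Dnajc14 and Dnajc24 rose by 0.26 to 0.56, and none of these 5 passed with median scaling. The rises of Dnajc14, Dnajc24 and the mitochondrial Dnaja3, and the fall of Dnajc27, were each lost without any 1 of several arrays. The adjusted p of these rises was highest with median scaling, at 0.269, 0.934 and 0.677. Dnajc27 still fell with median scaling, and its adjusted p was at most 0.0692 over all settings. Dnajc14 and Dnajc27 also lost their calls with the deposited processed values and without background correction, and Dnaja3 with its dimmer probe.

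**Figure D4:**
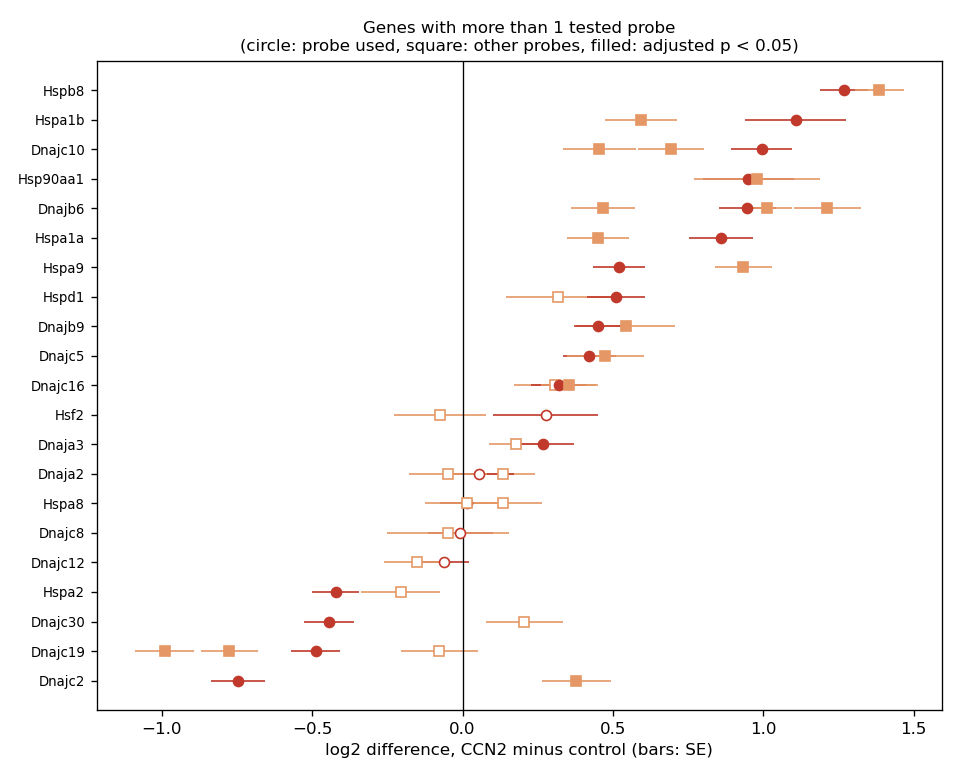
Log2 difference of CCN2 minus control for the 21 genes with more than 1 tested probe; circles are the probes used (highest mean), squares the other probes, bars the SE, and filled symbols have an adjusted p under 0.05. All probes of a gene gave 1 call in 14 of the 21 genes, and only Dnajc2 has filled symbols on both sides of 0.

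Across the 21 genes with more than 1 tested probe, all probes gave the same call after CCN2 in 14, some probes passed and others did not in 6, and the calls were opposite in Dnajc2. None of the 3 regulators passed in the 3 comparisons over all 12 arrays with quantile normalization, and without GDF15 array 12 Hsf2 was lower with GDF15 than with CCN2 (-0.47, adjusted p = 0.0150). The heat shock factor gene Hsf2 was at 6.72 ± 0.17 on control, 7.00 ± 0.26 on CCN2 and 6.72 ± 0.43 on GDF15 arrays, and its difference of 0.28 after CCN2 had a 95% interval of -0.092 to 0.65. Hspbp1, an exchange factor and inhibitor of HSP70, was at -0.11 after CCN2 (adjusted p = 0.356) and at -0.40 with median scaling (adjusted p = 0.00746).

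Other chaperone genes, from a list of 45 co-chaperones, chaperonin subunits and related genes, were measured for 43. After CCN2, 13 rose and 7 fell, with a median of 0.16, where 25.7% of all genes rose and 30.2% fell. With median scaling 8 rose and 12 fell, against 14.8% and 43.1% of all genes. After GDF15, 2 rose and 1 fell, against 9.76% and 12.7% of all genes. With median scaling none rose and 1 fell after GDF15, against 6.7% and 14%. The largest rises were those of Stip1, which links HSP70 to HSP90, at 1.40 (SE 0.089, adjusted p = 5.94e-10), and Hyou1, a large HSP70 relative of the endoplasmic reticulum, at 1.22 (SE 0.11, adjusted p = 6.36e-08). The largest falls were those of Cryab, given above, and of Hscb, a mitochondrial J-domain protein of iron-sulfur cluster assembly outside the symbol rule, at -0.79 (SE 0.18, adjusted p = 0.00127).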

How the data were processed

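Total RNA of 12 samples was measured on Illumina bead arrays. Per the file headers, the deposited table holds, for 45281 probes on every array, an unscaled intensity with its detection p-value, and the submitters' processing notes name GenomeStudio 2010.1. No deposited intensity lies below 0. A second deposited table of intensities, with 1 median in every column, served as an alternative; who normalized it and how is not given in the sources used here.

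Intensities were corrected with normexp, quantile-normalized and put on the log2 scale with an offset of 16 (neqc, limma 3.58.1, R 4.3.3). This offset shrinks the fold changes of dim probes. The 20445 probes detected on at least 4 arrays were fitted in 1 model of 3 group means with lmFit and eBayes (9 residual degrees of freedom). Tests were two-sided, with Benjamini-Hochberg adjustment over all tested probes of a comparison and a threshold of 0.05. A gene is its tested probe with the highest mean. The fit was tested on simulated data. The number of arrays limits the precision, and 18009 to 19691 probes were detected per array.

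Array values are given for the genes with up to 12, 8 and 4 of the largest called changes after CCN2, after GDF15 and between the treatments, which came to 14 genes, and 16 measured genes were always named. The genes, lists and tests were chosen with earlier results of these data known. Symbols come from the platform annotation, and all 55 matched the RefSeq table by gene ID with no change of symbol. Promoter sequences are RefSeq's. No coordinates are given for probes.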

Additional observations from a re-analysis of the deposited data

Results flagged for a closer look

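In 2 of 72 sets of 4 arrays tested, 1 array lay far from the other 3, measured as its gap to the nearest array over the range of the set, and above the 95% critical value of Dixon's test. Chance flags about 5% of such sets. Both lay on CCN2 array 6. Hspb2 read 4.79 there and 5.49 to 5.64 on the other CCN2 arrays, a ratio of 0.833. Hspb8 read 11.04 there and 10.97 to 10.98 on the others, also a ratio of 0.833.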

How the results depend on the processing

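Settings were changed 1 at a time. The median-scaling counts of other gene lists and of genes by promoter element, and the odd or even covariate, were added after seeing the data. After CCN2, the 29 rises and 9 falls became 13 and 16 with median scaling, and 5 genes fell with the lowest-mean probe per gene. After GDF15, without the detection filter 3 genes were called, 2 of them higher. The 1 fall after GDF15 became 2 with the deposited processed values, median scaling, no background correction, an offset of 50 or array weights. Between the treatments, 20 genes were called with median scaling, 11 higher and 9 lower with GDF15, in place of 9 and 23. The lowest-mean probe turned Dnajc2 after CCN2 to 0.38 and Hspd1 after GDF15 to -0.56. Leaving out 1 array gave 34 to 37 genes called after CCN2, 4 to 6 after GDF15 and 26 to 32 between the treatments; the falls after GDF15 ranged from 1 to 3, with 2 without control array 4 and 3 without GDF15 array 12. Of the values of single named genes, under other settings 570 kept their side of the threshold, 22 lost and 3 gained a call and 2 reversed, and with 1 array left out 462 kept it, 15 lost and 3 gained a call. The titles number the arrays through all groups. No paired analysis was possible because the groups share no replicate numbers; the odd or even order of the numbers was fitted as a covariate, given below. The causes of these changes in calls were not tested. A difference of modest size can be missed on dim probes near the detection limit, such as those of Dnajb3, Dnajb5 and Hspa12a.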

Other observations

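In Hspa5, Hspa1b, Hsp90aa1 and Dnajb4, both arrays with even title numbers lay above both with odd numbers in each of the 3 groups. This held for 4 of the 55 genes (7.27%) and for 3.02% of all genes, and the opposite order for none of the 55 and for 1.09% of all genes. The labels do not say what the numbers stand for. With odd or even number as a covariate, an alternative chosen after seeing the data, 29 genes rose and 11 fell after CCN2, the added falls being those of Dnajb4 and Hspa12a, and 5 rose and 1 fell after GDF15, the added rise being that of Hsp90aa1 at 0.31 (SE 0.095, adjusted p = 0.0266).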
